A study of Homo sapiens with 12 samples.

Results

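Leukocytes leave the blood and reach their targets by following chemokines and by gripping adhesion molecules on the cells they meet. *ICAM1* and *ICAM2* encode ligands of the integrin LFA-1, *VCAM1* encodes the ligand of the integrin α4β1, and *CD58* encodes the ligand of CD2 on T cells and NK cells. *CCL2*, *CCL7* and *CCL8* encode CC chemokines that attract monocytes, *CCL5* encodes a CC chemokine that attracts T cells and monocytes, and *CX3CL1* and *CXCL16* encode chemokines that are anchored in the membrane and can be shed. Inflammatory cytokines such as IFNγ and TNF are known to raise several of them, through IRF1 and NF-kB among other factors. These 10 genes were selected by name from the 45416 genes of the deposited table, and all 10 were listed in it.

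The RNA-seq libraries came from U251, an established human glioblastoma cell line labelled as wild type. The cells received a control siRNA (siNC) or siPDL1-1 or siPDL1-2, which target *PD-L1* (*CD274*), the gene of an immune checkpoint ligand. After 48 h they were left without stimulation or were stimulated with IFNγ at 100 U/ml for 24 h, which gave 6 groups of 2 libraries. All 12 libraries therefore came from transfected cells of 1 line, and the methods describe independent experiments without saying which library came from which.

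The values are the authors' normalized read counts in CPM, a unit scaled to library size, and between 17101069 and 55657393 reads had been counted on genes per library, so that 1 read was worth between 0.0187 and 0.0586 CPM. Groups were compared with limma on log2(CPM + 1), and a gene was called at FDR < 0.01 over all genes tested together with a fold change > 1.5. For genes near or under 1 CPM, the added 1 shrinks the log2 fold change. In bulk RNA, more cells that express a gene and more RNA per cell cannot be told apart. *CD274* was 4.60 and 4.91 CPM in the siNC libraries without IFNγ, 2.67 and 2.73 CPM with siPDL1-1, and 3.57 and 3.45 CPM with siPDL1-2. After IFNγ it was 71.2 and 76.0 CPM with siNC, 60.9 and 66.7 CPM with siPDL1-1, and 37.5 and 35.0 CPM with siPDL1-2. The fall passed both thresholds for siPDL1-1 without IFNγ and for siPDL1-2 after IFNγ, and not for siPDL1-1 after IFNγ (FDR = 0.0604) or siPDL1-2 without IFNγ, where the FDR was 0.00183 and the fold change was under 1.5.

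Of the markers of an astrocytic glioma line, all 7 had a mean of at least 1 CPM, of which *VIM* was the highest at 3139 to 3968 CPM, while *S100B* (2.40 to 5.92 CPM) and *GFAP* (1.92 to 7.25 CPM) were low. Of 10 leukocyte markers only *CD68*, a lysosomal gene that is not limited to leukocytes, had a mean of at least 1 CPM. Next highest were *CSF1R* (0.318 to 1.13 CPM) and *CD14* (0 to 0.667 CPM). The pan-leukocyte gene *PTPRC* did not exceed 0.176 CPM, and *CD3E*, *AIF1* and *TYROBP* had at most 1 read in any library. Of 8 endothelial markers, 3 had a mean of at least 1 CPM, *EGFL7* (37.5 to 52.6 CPM), *KDR* (3.37 to 7.34 CPM) and *VWF* (1.47 to 4.78 CPM), while *PECAM1* did not exceed 0.297 CPM and *CLDN5* had at most 4 reads. With IFNγ, 1, 2 and 2 of the 5 tested endothelial markers were called in siNC, siPDL1-1 and siPDL1-2 cells, all downward. Of all genes tested, 8.12%, 6.87% and 5.27% were called there. The endothelial calls were *VWF* in all 3 siRNA groups and *KDR* with siPDL1-1 and siPDL1-2. Of the 7 glioma markers, *GFAP* also fell in all 3 groups, and *SOX2* rose with siNC and siPDL1-1. These are levels in libraries of 1 cultured line, and what set them was not tested.

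The genes lie on 4 chromosomes of GRCh38. *VCAM1* (1:100719742-100739045, plus strand) and *CD58* (1:116514534-116571039, minus strand) lie on chromosome 1, *CX3CL1* (16:57372477-57385044, plus strand) on chromosome 16 and *ICAM1* (19:10271093-10286615, plus strand) on chromosome 19. The other 6 lie on chromosome 17. *CCL2* (34255218 to 34257203), *CCL7* (34270221 to 34272242) and *CCL8* (34319435 to 34321402) follow each other on the plus strand within 66.2 kb, with *CCL11*, which had 0 reads in all 12 libraries, between *CCL7* and *CCL8*. *CCL5* (35871491 to 35880793, minus strand) begins 1550.1 kb beyond *CCL8*, and *CXCL16* (4733533 to 4739928) and *ICAM2* (64002594 to 64020634) lie on the minus strand elsewhere on the chromosome.

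The sequences before the transcription starts of *ICAM1* and *VCAM1* are shown because these genes were called with IFNγ in all 3 siRNA groups. RefSeq (GRCh38.p14) gave a start region for 5 of the 10 genes: *ICAM1*, *VCAM1*, *CD58*, *CCL7* and *CCL8*. The 250 bases before the start were searched on both strands for the GAS motif of STAT dimers (TTCNNNGAA), the ISRE motif of IRF factors and the NF-kB consensus. Capitals mark the matches, and both sequences are on the plus strand, 5′ to 3′, at 19:10270870-10271119 for *ICAM1* and 1:100719492-100719741 for *VCAM1*.
ICAM1: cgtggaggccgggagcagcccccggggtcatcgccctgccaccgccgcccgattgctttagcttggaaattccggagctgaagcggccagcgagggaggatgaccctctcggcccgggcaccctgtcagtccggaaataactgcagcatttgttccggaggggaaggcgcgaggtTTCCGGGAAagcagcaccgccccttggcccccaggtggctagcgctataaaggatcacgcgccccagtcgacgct
VCAM1: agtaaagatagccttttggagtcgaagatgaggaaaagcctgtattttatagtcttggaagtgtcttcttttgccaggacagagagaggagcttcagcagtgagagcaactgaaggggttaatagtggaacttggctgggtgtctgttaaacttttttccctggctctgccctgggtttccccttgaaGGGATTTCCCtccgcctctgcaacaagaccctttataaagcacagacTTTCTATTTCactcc
*ICAM1* holds 1 GAS match, TTCCGGGAA, from 75 to 67 bases before the RefSeq start at 10271120. *VCAM1* holds 1 NF-kB match, GGGATTTCCC, from 62 to 53 bases before the start and 1 ISRE match, TTTCTATTTC, which is the motif read on the opposite strand, from 15 to 6 bases before it, and the matches do not overlap. Of the others, *CCL8* holds a GAS match 91 to 83 bases before its start, *CCL7* holds one at the far edge of the window, 250 to 242 bases before, and *CD58* holds none of the motifs. Among 35116 start regions of the same length, 6.57% hold the GAS motif, 3.02% the ISRE motif and 9.96% the NF-kB consensus. A match describes these letters only and does not show that a factor binds there.

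After the filter on low reads, 7 of the 10 genes were tested, and *ICAM2*, *CCL7* and *CCL8* were not. *ICAM1* and *CCL5* passed the filter only through the groups in which they were high. Their calls, and their part in the counts and medians of the 7, are therefore descriptions. Per kilobase of exon, in unstimulated siNC cells, *CXCL16* was the highest at 11.6 ± 0.133 CPM (SD, n = 2) and *CD58* followed at 10.5 ± 0.0114, beyond their spread. *CX3CL1* was at 4.21 ± 0.0188, *CCL2* at 2.33 ± 0.218 and *VCAM1* at 1.15 ± 0.344 CPM per kilobase. *CCL5*, at 0.0371 ± 0.0525, and *ICAM1*, at 0.0328 ± 0.0263, did not differ beyond their spread. The exon length of *CCL2* is less certain, because its region in the GENCODE v44 annotation differs from that in the file. After IFNγ in siNC cells *CXCL16* stayed first at 16.9 ± 0.662 CPM per kilobase and *VCAM1* came second at 12.6 ± 0.324, ahead of *CD58* at 11.3 ± 0.346. The lengths join all annotated exons (2793 bases for *CXCL16*, 6049 for *VCAM1*) and can exceed the transcript present, so these orders depend on them. In CPM, *VCAM1* lay above *CXCL16* in these stimulated cells, at 76.2 against 47.1. *CX3CL1* lay above *CD58* in the unstimulated ones, at 25.1 against 18.7.

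**Figure D1:**
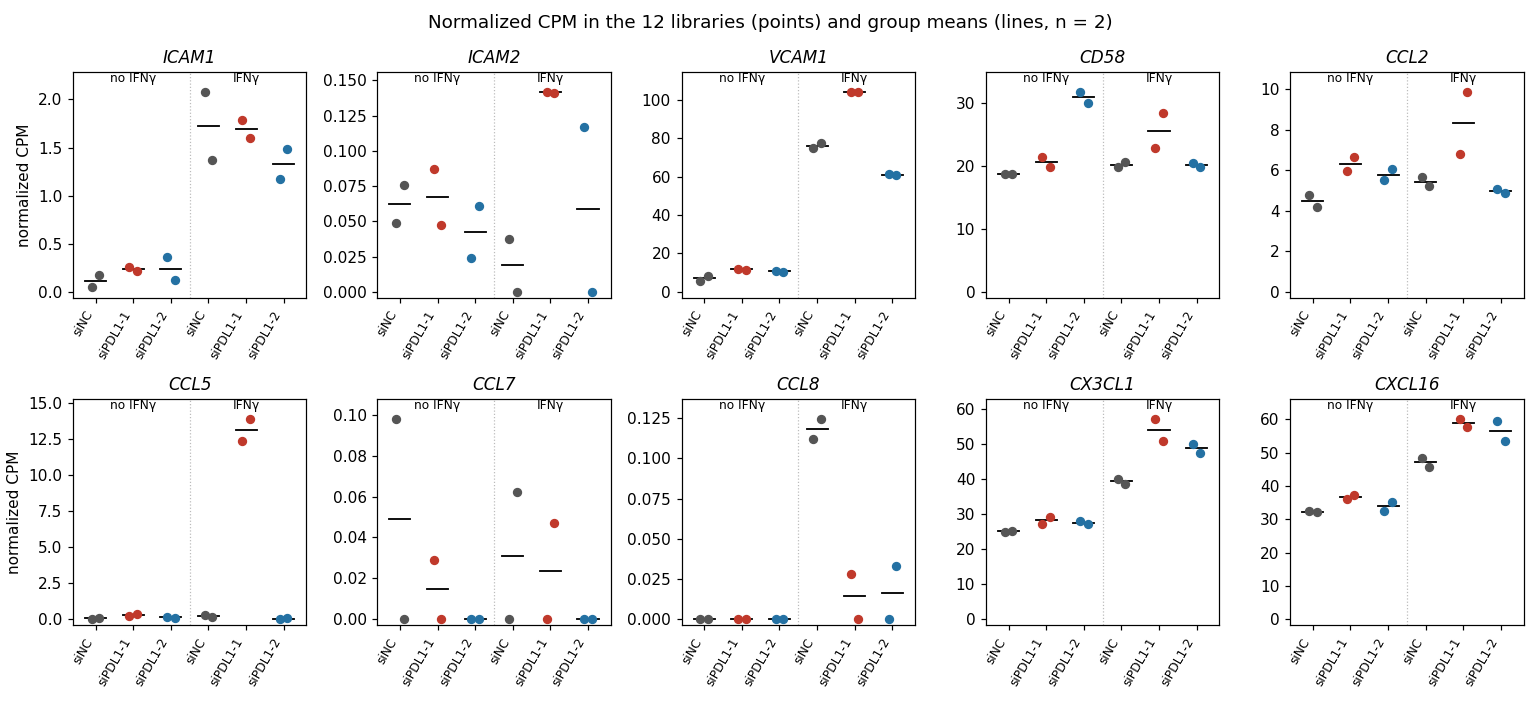
Normalized CPM of the 10 genes (vertical axes, linear, each from 0 with its own range) in the 12 libraries, grouped by siRNA without IFNγ (left of the dotted line) and with IFNγ (right), with points for libraries and lines for group means (n = 2). *VCAM1* rises from at most 12.2 CPM to at least 60.8 CPM, and *CCL5* exceeds 0.377 CPM in only the 2 siPDL1-1 libraries with IFNγ.

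The first comparison asked how IFNγ changed these genes in control cells. IFNγ raised *VCAM1*, *ICAM1* and *CX3CL1* in siNC cells, which is 3 of the 7 tested genes, where 8.12% of all genes tested were called. The call of *ICAM1*, which passed the filter through its stimulated libraries, is a description. The median log2 fold change of the 7 was 0.53, beside 0.00123 over all genes. *VCAM1* was 5.48 and 8.43 CPM without IFNγ and 74.8 and 77.5 CPM with it. The libraries did not overlap, and the mean was 11.0 times higher (log2 fold change 3.30, SE 0.129, FDR = 3.43e-09).

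*ICAM1*, the LFA-1 ligand, stayed rare. It had 1 and 7 reads without IFNγ (0.0490 and 0.177 CPM) and 111 and 66 reads with it (2.08 and 1.37 CPM). The log2 fold change was 1.28 (SE 0.145, FDR = 5.42e-06), and with few reads in the lower group its size ranged from 1.09 to 3.71 over the alternative fits, all of which called it. *ICAM1* therefore lay at 0.500 CPM per kilobase after IFNγ, against 12.6 for *VCAM1*.

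*CX3CL1*, the ligand of CX3CR1, rose from 25.0 and 25.2 CPM to 40.2 and 38.7 CPM (log2 fold change 0.63, SE 0.0650, FDR = 2.09e-06). *CXCL16*, the ligand of CXCR6, was 32.6 and 32.0 CPM without IFNγ and 48.4 and 45.8 CPM with it. Its libraries did not overlap either, but its log2 fold change of 0.53 (FDR = 8.33e-06) was under the fold threshold.

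*CD58*, *CCL2* and *CCL5* were not called. *CD58* was 18.7 CPM in both unstimulated libraries and 19.8 and 20.6 CPM with IFNγ (FDR = 0.354). *CCL2*, the main monocyte attractant of the group, was 4.80 and 4.20 CPM without and 5.69 and 5.21 CPM with IFNγ (log2 fold change 0.23, 95% interval -0.0543 to 0.517, FDR = 0.195). *CCL5* had 0 and 4 reads without IFNγ and 14 and 8 reads with it (FDR = 0.188).

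The genes at the limit of detection were *ICAM2*, *CCL7* and *CCL8*. *ICAM2* had between 0 and 5 reads and *CCL7* between 0 and 3 reads in every library. *CCL8* had 6 reads in each siNC library with IFNγ, 0 in all 6 unstimulated libraries, and at most 1 in the stimulated siPDL1-1 and siPDL1-2 libraries. The stimulated siNC libraries were the deepest, at 55657393 and 50017519 reads. In CPM, *CCL8* was 0.112 and 0.125 there, and at most 0.0284 with siPDL1-1 and 0.0331 with siPDL1-2 after IFNγ. A count of 0 allows up to 3 reads in a library. Fitted without the filter, *CCL8* had a log2 fold change of 0.16 with IFNγ in siNC cells (FDR = 0.000317), under the fold threshold, and none of the 3 genes was called in any comparison.

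With siPDL1-1, IFNγ raised 5 of the 7 tested genes, where 6.87% of all genes tested were called. *VCAM1* rose from 12.2 and 11.2 CPM to 104.2 and 104.0 CPM (log2 fold change 3.05, FDR = 6.16e-09), and *ICAM1* rose from 0.261 and 0.212 CPM to 1.79 and 1.60 CPM (log2 fold change 1.12, FDR = 2.37e-05). *CX3CL1* rose from 27.2 and 29.3 CPM to 57.1 and 50.8 CPM and *CXCL16* from 36.0 and 37.2 CPM to 60.1 and 57.9 CPM, by 0.91 and 0.67 on the log2 scale. For all of them the stimulated and unstimulated libraries did not overlap, as in siNC cells.

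*CCL5* was also called, in this siRNA group only, the group through which it passed the filter. It had 8 and 16 reads (0.232 and 0.377 CPM) in the unstimulated siPDL1-1 libraries and 436 and 295 reads (12.4 and 13.9 CPM) in the stimulated ones. Both stimulated libraries lay far above the unstimulated ones (log2 fold change 3.44, SE 0.119, FDR = 3.11e-12). From the reads, the ratio was 41.5 (exact 95% interval 27.7 to 65.2, for counting error only). *CD58* (22.8 and 28.4 CPM after IFNγ, FDR = 0.0158) and *CCL2* (6.81 and 9.88 CPM, FDR = 0.0658) were not called.

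With siPDL1-2, IFNγ moved 5 of the 7 tested genes, 4 upward and 1 downward, where 5.27% of all genes tested were called. *VCAM1* rose from 11.1 and 10.6 CPM to 61.4 and 60.8 CPM (log2 fold change 2.39, FDR = 8.36e-08). *ICAM1* rose from 0.359 and 0.122 CPM to 1.17 and 1.49 CPM (log2 fold change 0.91, FDR = 0.000252). *CX3CL1* rose from 27.9 and 27.2 CPM to 50.1 and 47.4 CPM and *CXCL16* from 32.6 and 35.1 CPM to 59.5 and 53.4 CPM, by 0.80 and 0.72 on the log2 scale.

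*CD58*, the CD2 ligand, fell with IFNγ in siPDL1-2 cells. It was 31.8 and 30.0 CPM without IFNγ and 20.4 and 19.8 CPM with it, so that its libraries did not overlap and its stimulated level lay in the range of stimulated siNC cells, at 19.8 and 20.6 CPM. The log2 fold change was -0.60 (SE 0.0850, FDR = 9.35e-05), close to the fold threshold, and it was -0.556 without the unstimulated siPDL1-2 library 1 and -0.575 without the stimulated siPDL1-2 library 2, which ended the call. *CCL2* (5.10 and 4.86 CPM) and *CCL5* (0 and 2 reads) were not called.

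**Figure D2:**
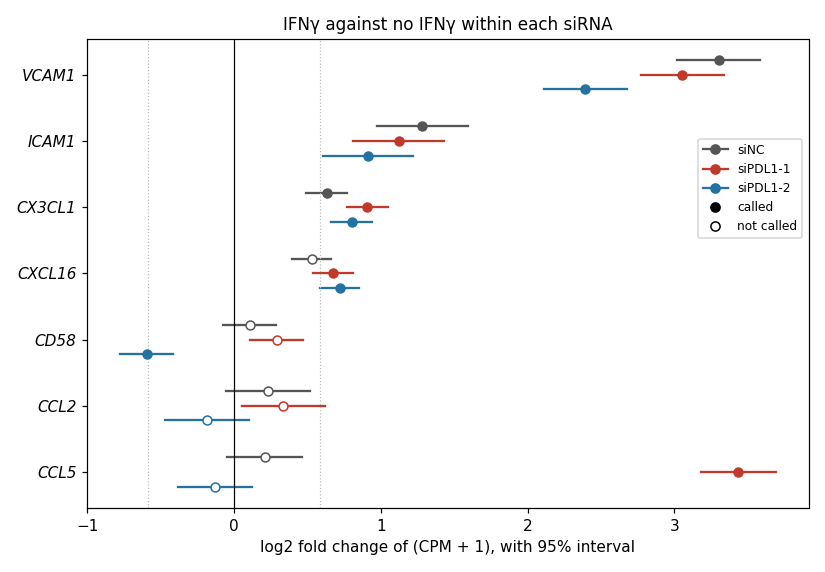
Log2 fold change of CPM + 1 for IFNγ against no IFNγ (horizontal axis) with 95% intervals, for the 7 tested genes in siNC, siPDL1-1 and siPDL1-2 cells. Filled points passed both thresholds, open points did not, and dotted lines mark a fold change of 1.5. *CCL5* lies at 3.44 with siPDL1-1 against 0.21 and -0.13 with the others, and *CD58* lies below 0 only with siPDL1-2.

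The difference between the IFNγ responses was tested itself. Between siPDL1-1 and siNC, 1 of the 7 tested genes, *CCL5*, was called, where 0.968% of all genes tested were called. Its response was larger by 3.23 on the log2 scale (SE 0.168, FDR = 1.05e-08). Only 4 reads of *CCL5* stood in unstimulated siNC cells, and the call was not made by the count models. With edgeR's quasi-likelihood test the difference was 3.77 with an FDR of 0.0775, and DESeq2 gave 3.73 and no adjusted p. The *VCAM1* responses of siPDL1-1 and siNC differed by -0.25 (95% interval -0.649 to 0.154, FDR = 0.578).

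Between siPDL1-2 and siNC, *VCAM1* and *CD58* were called, which is 2 of the 7, where 7.62% of all genes tested were called. The *VCAM1* response was smaller with siPDL1-2, with a log2 difference of -0.91 (SE 0.182, FDR = 0.00360). Leaving out either stimulated siPDL1-1 library, either library of siPDL1-2 without or with IFNγ, or the stimulated siNC library 2 ended this call, with log2 differences from -0.94 to -0.877 and FDR from 0.0132 to 0.0203. Without the unstimulated siNC library 1, which had the lowest *VCAM1* value at 5.48 CPM, the difference was -0.638. The *CD58* response differed by -0.70 (SE 0.120, FDR = 0.000658) and was called in every alternative fit.

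The next comparisons asked whether the siRNAs against *PD-L1* changed these genes without IFNγ. *VCAM1* was higher with both siRNAs, at 12.2 and 11.2 CPM with siPDL1-1 and 11.1 and 10.6 CPM with siPDL1-2 against 5.48 and 8.43 CPM with siNC. It was the only one of the 7 called with siPDL1-1 (log2 fold change 0.69, SE 0.129, FDR = 0.00192), where 4% of all genes tested were called. With siPDL1-2 the log2 fold change was 0.60 (FDR = 0.00342). Both comparisons share the siNC libraries, whose *VCAM1* values lie further apart than those of any other group as a ratio. Without siNC library 1, the log2 fold changes fell to 0.424 and 0.326, and neither was called. The siPDL1-1 call was also lost without either of its own unstimulated libraries (FDR 0.0239 and 0.0110), and the siPDL1-2 call without either of its own (FDR 0.0295 and 0.0201), without either stimulated siPDL1-1 library (FDR 0.0136 and 0.0137), and with both count models, where it was 0.544 and 0.546.

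*CD58* was higher with siPDL1-2, at 31.8 and 30.0 CPM, than with siNC, at 18.7 CPM in both libraries. The log2 fold change was 0.70 (SE 0.0850, FDR = 1.60e-05) and the call held in every alternative fit. *VCAM1* and *CD58* were thus 2 of 7 called with siPDL1-2, where 6.17% of all genes tested were called. With siPDL1-1, *CD58* was 21.4 and 19.9 CPM, and the log2 difference from siNC was 0.14 (95% interval -0.0448 to 0.318, FDR = 0.260).

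*CCL2* was 5.98 and 6.64 CPM with siPDL1-1 and 5.51 and 6.07 CPM with siPDL1-2, above the siNC libraries at 4.80 and 4.20 CPM, and was not called (FDR = 0.0314 and 0.0827). Between siPDL1-1 and siPDL1-2 without IFNγ, limma called 0 of the 7, where 4.35% of all genes tested were called and 8039 genes had an unadjusted p under 0.05. *CD58* was closest, with 21.4 and 19.9 CPM for siPDL1-1 against 31.8 and 30.0 CPM for siPDL1-2 (log2 fold change -0.56, FDR = 0.000154), under the fold threshold. With edgeR's quasi-likelihood test *CD58* was called (-0.593), and DESeq2 called none.

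After IFNγ, *CCL5* separated the siRNAs. It had 14 and 8 reads with siNC (0.262 and 0.166 CPM), 436 and 295 reads with siPDL1-1 (12.4 and 13.9 CPM), and 0 and 2 reads with siPDL1-2 (0 and 0.0661 CPM). Against siNC, the log2 fold change of siPDL1-1 was 3.54 (SE 0.131, FDR = 2.10e-08) and the ratio from the reads was 59.7 (exact 95% interval 39.2 to 95.9, for counting error only). Against siPDL1-2, the log2 fold change was 3.77 (FDR = 1.41e-08), and 731 reads stood against 2, a ratio of 306 with an interval of 84.4 to 2532. Both were called in every alternative fit, but *CCL5* passed the filter only through the stimulated siPDL1-1 libraries, so these calls are a description. The 10 leukocyte markers summed to 75.9 to 81.0 CPM in the stimulated siPDL1-1 libraries against 42.4 to 42.6 CPM with siNC and 47.9 to 51.3 CPM with siPDL1-2, and almost all of this was *CD68*, which was called in both comparisons. Over the 12 libraries *CSF1R* reached 1.13 CPM and *CD14* 0.667 CPM, while *PTPRC* did not exceed 0.176 CPM and *CD3E* had at most 1 read. The source of these reads was not tested.

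*CCL5* was the only one of the 7 called between siPDL1-1 and siNC after IFNγ, where 5.52% of all genes tested were called. *VCAM1* (104.2 and 104.0 CPM against 74.8 and 77.5 CPM) had a log2 fold change of 0.45 (SE 0.0593, FDR = 0.000321), *CX3CL1* of 0.44 (FDR = 0.00159) and *CXCL16* of 0.32 (FDR = 0.00796). These 3 passed the FDR threshold and stayed under the fold threshold. *CCL2* was 6.81 and 9.88 CPM against 5.69 and 5.21 CPM, and its replicates lay far apart (log2 fold change 0.52, FDR = 0.0246). Without the stimulated siPDL1-1 library 1, *CCL2* was called with 0.755.

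Between siPDL1-2 and siNC after IFNγ, limma called 0 of the 7, where 2.91% of all genes tested were called and 6147 genes had an unadjusted p under 0.05; edgeR and DESeq2 also called none of the 7. *VCAM1* was 61.4 and 60.8 CPM with siPDL1-2, below both siNC libraries, with a log2 fold change of -0.31 (95% interval -0.444 to -0.182, FDR = 0.00460), under the fold threshold. *VCAM1* thus lay above siNC without IFNγ and below it after IFNγ. *CD58*, which was higher with siPDL1-2 without IFNγ, differed from siNC by -0.00729 after IFNγ (95% interval -0.228 to 0.214).

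Between the siRNAs after IFNγ, *VCAM1* and *CCL5* were called, which is 2 of the 7, where 2.11% of all genes tested were called. *VCAM1* was 1.70 times higher with siPDL1-1 than with siPDL1-2 (log2 fold change 0.76, SE 0.0593, FDR = 1.51e-05), and its libraries did not overlap. *CCL2* was 1.68 times higher (log2 fold change 0.62, FDR = 0.0219) and was not called, but it was called when all 12 libraries were fitted together (FDR = 0.00410), and without either stimulated siNC library (FDR 0.00375 and 0.00324) or the stimulated siPDL1-1 library 1 (log2 fold change 0.864). *ICAM1* did not differ detectably between these groups (0.21, 95% interval -0.130 to 0.553).

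**Figure D3:**
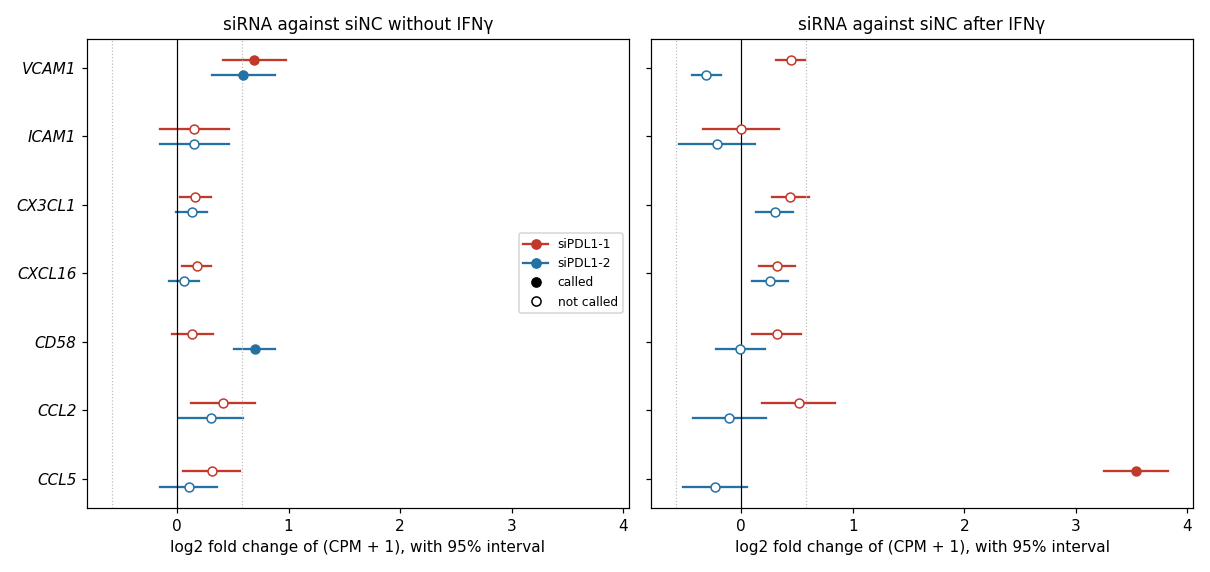
Log2 fold change of CPM + 1 for each siRNA against siNC (horizontal axis) with 95% intervals, without IFNγ (left) and after IFNγ (right), for the 7 tested genes. Filled points passed both thresholds, open points did not, and dotted lines mark a fold change of 1.5. *VCAM1* is called with both siRNAs on the left, and on the right the only called point is *CCL5* with siPDL1-1, at 3.54.

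The genes with the most similar pattern over the 12 libraries were sought among 14277 genes by the correlation of log2(CPM + 1), as a description only, since the libraries share 6 conditions. IFNγ sets most of the range of *VCAM1*, *CX3CL1* and *CXCL16*, and the 2 stimulated siPDL1-1 libraries set that of *CCL5*. For *VCAM1* the most similar genes were *PARP14* (r = 0.995) and *APOBEC3F* (r = 0.994). *CX3CL1* and *CXCL16*, the membrane-anchored chemokines, followed each other (r = 0.990), beside *FZD5* for *CX3CL1* (r = 0.993) and *LGI4* for *CXCL16* (r = 0.990). *CCL5* was closest to *PNPT1* (r = 0.978) and *IL4I1* (r = 0.975), *CD58* to *HDAC9* (r = 0.959) and *SLC46A3* (r = 0.955), and *CCL2* to *MAP2* (r = 0.942) and *ASPH* (r = 0.926).

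Of the receptors and counter-receptors of these molecules, 12 of 22 were tested. *CD2*, the T cell and NK cell receptor of CD58, had 0 reads in all libraries, *CCR2* had at most 2 reads and *CX3CR1* at most 5. The cells did express *ITGB1*, at 558 to 800 CPM, and *ITGA4*, at 7.01 to 12.6 CPM, which encode the α4β1 integrin that binds VCAM1. *ITGA4* rose with IFNγ in siNC cells by 0.61 (FDR = 4.67e-05). It was the only 1 of the 12 called there, where 8.12% of all genes tested were called. With siPDL1-2 without IFNγ it rose by 0.68. *ITGA4* was not called with IFNγ in siPDL1-1 or siPDL1-2 cells. Its IFNγ response was smaller with siPDL1-2 than with siNC (log2 difference -0.60, FDR = 0.00202). For that difference 2 of the 12 were called, both downward, where 7.62% of all genes tested were called. *CCR1*, a receptor of CCL5 and CCL7 named after its values were seen, had 66 and 39 reads in the stimulated siPDL1-1 libraries and at most 2 elsewhere, so that it passed the filter only through the group in which it was high, and its call there is a description.

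The list of receptors also held the ERM proteins that anchor ICAM tails to actin. *RDX* rose with siPDL1-1 (0.92) and with siPDL1-2 (1.22) without IFNγ, and *ITGA9*, an integrin gene whose product also binds VCAM1, rose by 0.75 and 0.77. In all, 2 of the 12 were called with siPDL1-1, where 4% of all genes tested were called, and 4 with siPDL1-2, where 6.17% were, all upward.

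Of 7 genes for the cleavage or trimming of these molecules, 6 were tested. *RHBDF2*, whose product guides the sheddase ADAM17, was the only one called with IFNγ, and it rose in all 3 siRNA groups, by 1.25 in siNC cells (15.4 ± 0.853 to 38.1 ± 3.13 CPM, FDR = 1.15e-09). Over all genes tested, 8.12%, 6.87% and 5.27% were called with IFNγ in siNC, siPDL1-1 and siPDL1-2 cells. *ADAM10*, a sheddase of CX3CL1 and CXCL16, was higher with siPDL1-2 without IFNγ by 0.66, and the matrix protease gene *MMP14* was higher with siPDL1-1 by 0.80. Each was the only 1 of the 6 called there, where 6.17% and 4% of all genes tested were called. After IFNγ, 3 of the 6 were called with siPDL1-1 against siNC, all upward, where 5.52% of all genes tested were called. These were *MMP14*, *TIMP3* and *RHBDF2*. None of the 6 was called with siPDL1-2 against siNC after IFNγ, where 2.91% of all genes tested were called.

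Among 23 other adhesion molecules of leukocyte traffic, 19 were tested, and with IFNγ in siNC cells 1 rose and 2 fell, where 8.12% of all genes tested were called. *CD47* rose from 36.2 ± 0.103 to 120.0 ± 5.83 CPM (log2 fold change 1.70, FDR = 1.39e-12), while *MCAM* and *NCAM1* fell by 0.85 and 0.62. The difference of the IFNγ response between siPDL1-2 and siNC was called for 2 of the 19, both downward. These were *CD47* (log2 difference -0.88, FDR = 1.86e-05) and *ALCAM* (-0.68, FDR = 0.000681). Of all genes tested 7.62% were called for it, 330 upward and 1040 downward. The *VCAM1* call, also downward, was made in 12 of 19 fits. Of 29 other chemokines, 28 were in the table, 10 had 0 reads in every library and 4 were tested. *CCL25*, named after its values were seen, was the only one called with IFNγ, with at most 3 reads in any unstimulated library and between 15 and 42 in the stimulated ones, so that it passed the filter only through the groups in which it was high. Its call is a description, beside 8.12%, 6.87% and 5.27% of all genes tested called in siNC, siPDL1-1 and siPDL1-2 cells.

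Of 17 genes of the NF-kB, STAT and IRF routes, all were tested, and 5 were called with IFNγ in siNC cells, all upward, where 8.12% of all genes tested were called, 1200 upward and 260 downward. *IRF1*, a transcription factor that IFNγ induces, rose by 4.85. *STAT2* rose by 1.35 in siNC cells and 2.61 in siPDL1-1 cells, where it reached 403.2 ± 17.8 CPM, and this difference of 1.26 was called (FDR = 1.66e-08). It was the only 1 of the 17 called for this difference, where 0.968% of all genes tested were called. *IRF9* was higher with siPDL1-1 than with siNC without IFNγ (0.74), the only 1 of the 17 called there, where 4% of all genes tested were called. After IFNγ, 2 of the 17 were called upward with siPDL1-1, *STAT2* (1.59) and *IRF9* (0.65), and 1 downward, *IRF1*. Of all genes tested 5.52% were called there. *IRF1* was at 349 ± 16.8 CPM with siPDL1-1 and at 540.1 ± 13.3 CPM with siNC (log2 fold change -0.63, FDR = 2.83e-05). It was also lower with siPDL1-2, at 383 ± 18.9 CPM, and was not called there. Without IFNγ, *TNFAIP3*, *NFKBIB* and *RELB*, an inhibitor, an inhibitor and a subunit of NF-kB signalling, were lower with siPDL1-2 than with siNC, with log2 fold changes of -1.10, -0.86 and -0.68. These were 3 of the 17 and the only ones called there, where 6.17% of all genes tested were called. After IFNγ, 2 of the 17 were called with siPDL1-2 against siNC, where 2.91% of all genes tested were called. *TNFAIP3* and *NFKBIA* were lower, with log2 fold changes of -0.87 and -0.72, in the same libraries in which that of *VCAM1* was -0.31. Their part in the *VCAM1* values was not tested.

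Because reads were counted on both strands, overlapping genes could share reads. An antisense gene over 13090 bases of *CD274* had a mean of 3.21 CPM over the 12 libraries (1.49 to 6.12 CPM), against 30.8 CPM for *CD274* in the same libraries. Without IFNγ *CD274* was 2.67 to 4.91 CPM, within the range of the antisense gene, whose unstimulated libraries were not examined alone. *CXCL16* overlaps *MED11* (mean 12.3 CPM) by 76 bases and *ZMYND15* (1.96 CPM) by 96 bases, both on the opposite strand. The antisense genes over *CCL5* and *ICAM1* had means of at most 0.0341 CPM. *PRR29*, opposite *ICAM2*, had a mean of 0.660 CPM against 0.0651 CPM for *ICAM2* itself.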

How the data were processed

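The signal values are normalized CPM as deposited by the authors, who trimmed the reads, used CLC Genomics Workbench to map them to GRCh38 (Ensembl annotation), counted both strands and normalized there. Column sums differed between libraries, and 100% of values were whole multiples of 1 read (tolerance 0.02 reads), which gave the reads per gene.

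The genes and lists were chosen with earlier results of these data known. Groups came from the sample labels. Genes were kept with filterByExpr (minimum count 10, total 15), which left 17982 genes over 12 libraries and 17148 over the 6 IFNγ libraries. Limma (trend, robust) was fitted to log2(CPM + 1) over 12 libraries, or over the 6 IFNγ libraries for comparisons after IFNγ, with Benjamini-Hochberg FDR. P-values measure the spread between these libraries, which may be partly technical. The fits were tested on simulated data.

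From each list at most 4 called genes with the smallest FDR and a mean of at least 1 CPM are named per comparison, and for each gene of the group the 2 most similar genes. Alternatives were a pseudocount of 0.1, no filter, edgeR's quasi-likelihood test, DESeq2's Wald test and size factors, a replicate block, leaving out each library, and 1 fit of all libraries. Replicate numbers did not pair samples: correlations of their deviations between groups ranged from -0.187 to 0.252, with 2 of 15 over 0.1. Replicates were not copies. Extraction kit and instrument differ between the labels and the methods. Intervals on reads and a floor of 3 reads cover counting error only. Lengths are exon unions of GENCODE v44. The software was Python 3.11.15 (matplotlib 3.10.9, pandas 2.3.3, scipy 1.17.1, numpy 2.4.6) and R 4.3.3 (DESeq2 1.42.0, edgeR 4.0.16, limma 3.58.1). Values of a few listed genes are not reported here.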

Additional observations from a re-analysis of the deposited data

Results flagged for a closer look

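For 3 results the test of the difference between IFNγ responses passed both thresholds. The *CCL5* response was larger with siPDL1-1 than with siNC by 3.23 on the log2 scale, in both libraries, and it passed with limma but not with edgeR's quasi-likelihood test, for which the FDR was 0.0775. *CCL5* passed the filter on low reads only through the stimulated siPDL1-1 libraries. The *VCAM1* response differed between siPDL1-2 and siNC by -0.908, with FDR from 1.90e-07 to 0.0203 over 19 fits, the alternatives included, of which 12 made the call. The *CD58* response differed between siPDL1-2 and siNC by -0.703, and all 19 fits made the call.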

How the results depend on the processing

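Without IFNγ, the number of genes called for siPDL1-2 against siNC was 1 in place of 2 with edgeR's quasi-likelihood test, DESeq2's Wald test and DESeq2's size factors, and 1 to 2 when a library was left out. For siPDL1-1 against siNC it ranged from 0 to 1 and for siPDL1-1 against siPDL1-2 from 0 to 1, where edgeR gave 1. The difference of the IFNγ response for siPDL1-1 gave 0 with edgeR and 0 with DESeq2, whose adjusted p for *CCL5* was missing. For siPDL1-2 it ranged from 1 to 2, and siPDL1-1 against siNC after IFNγ ranged from 1 to 2. All other counts of these genes stayed within 1.5 times under the alternatives run.

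Single values that turned direction were all uncalled. For *ICAM1*, siPDL1-1 against siPDL1-2 without IFNγ was -0.112 with edgeR, -0.0689 with DESeq2, and -0.137 to 0.140 with a library left out. Its difference of the IFNγ response for siPDL1-1 ranged from -0.348 to 0.0302 with a library left out. For siPDL1-1 against siNC after IFNγ it was 0.00136 with a pseudocount of 0.1, 0.00246 with DESeq2's size factors, and -0.194 to 0.184 with a library left out. *CD58* for siPDL1-2 against siNC after IFNγ was 0.00133 with edgeR, 0.00429 with DESeq2, 0.00577 with its size factors, and -0.0369 to 0.0224 with a library left out. Leaving out a library also turned the difference of the IFNγ response for siPDL1-1 of *VCAM1* (-0.518 to 0.0221) and *CCL2* (-0.134 to 0.345), and siPDL1-1 against siPDL1-2 of *CX3CL1* without IFNγ (-0.0177 to 0.0846) and of *CXCL16* after it (-0.0132 to 0.140). The cause of these changes was not tested. Size factors moved the median of all genes by at most 0.0338.

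Over all genes, leaving out the stimulated siPDL1-2 library 1 or 2 changed the 499 called for siPDL1-2 against siNC after IFNγ to 172 or 143, and the 362 called between the siRNAs after IFNγ to 224 or 213. The 1370 called for the difference of the IFNγ response for siPDL1-2 became 890 without library 2.

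The replicate numbers share only a number. With the replicate number as a block, the genes of the group called were 3, 5 and 5 for IFNγ in siNC, siPDL1-1 and siPDL1-2 cells, 1, 2 and 0 without IFNγ, 1 and 2 for the differences of the response, and 1, 0 and 2 after IFNγ, the counts without the block, and counts over all genes changed by a factor of 0.912 to 1.005.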
